A study of Arabidopsis thaliana with 2 samples.

Results

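The R2R3 MYB genes of Arabidopsis thaliana were examined for binding of PRR5, a pseudo-response regulator of the circadian clock that represses transcription and is present in the afternoon and evening. Members were the protein-coding genes with a symbol or synonym of the form MYB or ATMYB followed only by a number, with CCA1, LHY and the RVE genes left out. This rule found 125 of 27432 protein-coding genes, 116 by their main symbol and 9 by a synonym only. The names were the only evidence used for membership, since protein sequences were not used here. The chromatin immunoprecipitation (ChIP-seq) was made with an antibody against GFP on whole plants of the prr5 mutant that carried PRR5pro:FLAG-PRR5-GFP, a tagged PRR5 under its own promoter. Plants were 18 days old, grew with 12 h of light and 12 h of dark per day, and were sampled 10 h after light on, for both the ChIP library and the input library of the same genotype (1 library each). ChIP from plants without the tag was not analysed here, and with 1 library per group no replicate check could be made.

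R2R3 MYB proteins are transcription factors that bind DNA through a pair of MYB repeats, and in plants they form one of the large factor families. They are sorted into numbered subgroups by shared motifs outside the DNA-binding domain. Members of a subgroup often act in the same process, such as flavonoid, glucosinolate or wax synthesis, stress responses or the choice of cell fate. The clock proteins CCA1 and LHY belong to a separate class of MYB proteins with a single repeat and are not members.

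The deposited list held 8983 regions with 5112270 reads. Regions were ranked by the authors' false discovery rate (FDR), the estimated percentage of false calls, and then by reads, so that rank 1 has the strongest support. A gene was counted as near a region when the region's centre fell between its ends or at most 1 kb outside them. The list ran up to an FDR of 100%, and 3195 regions lay above 5%, so the main counts are given at more than one level of support. The file headers do not say from which library the reads of a region come. The ChIP of whole plants cannot tell weak binding in many cells from strong binding in few.

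Of the 125 R2R3 MYB genes, 51 were near a region (40.8%, with a 95% Clopper-Pearson interval from 32.1 to 49.9%). The share among all protein-coding genes was 28%. In percentage points, the gap was smaller for each stricter set of regions than for all regions. With regions of FDR up to 5% there were 30 members (24%, 16.8 to 32.5), against 20.1% of all genes. Among the 4491 regions ranked highest there were 25 (20%, 13.4 to 28.1), against 16.2%. Among the 2245 ranked highest, called the top regions here, there were 9 (7.2%, 3.35 to 13.2), against 8.59%, so the share of R2R3 MYB genes at the regions with the strongest support was near the background.

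The WRKY and NAC genes, other large families of plant transcription factors chosen by the same kind of name rule, gave larger shares at each of these levels. Of 72 WRKY genes, 39 were near any region (54.2%, 42 to 66) and 16 near a top region (22.2%, 13.3 to 33.6). Of 100 NAC genes, 48 were near any region (48%, 37.9 to 58.2) and 14 near a top region (14%, 7.87 to 22.4). The intervals of the NAC and R2R3 MYB shares overlapped at both levels. Those of the WRKY shares overlapped with those of the R2R3 MYB genes for any region and did not for the top regions, where the WRKY lower bound was 13.3% and the R2R3 MYB upper bound 13.2%. The differences between families were not tested.

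**Figure D1:**
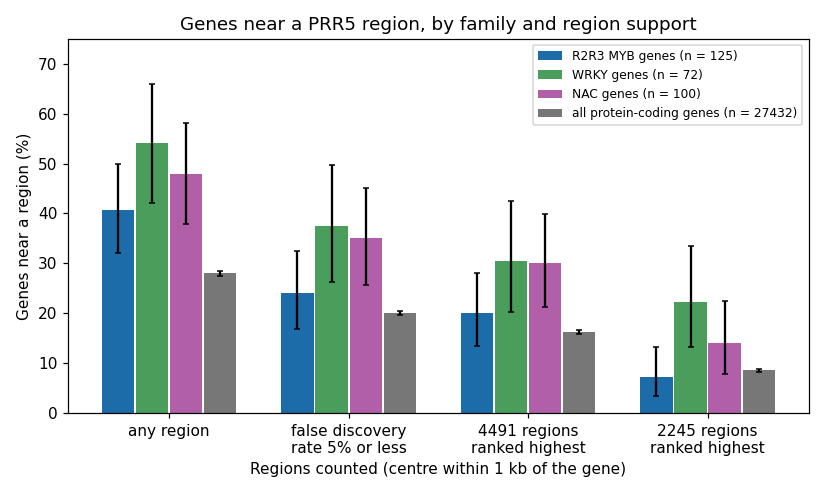
Share of genes in percent (vertical axis) near a region, for 4 sets of regions (horizontal axis), with bars for R2R3 MYB, WRKY, NAC and all protein-coding genes and 95% Clopper-Pearson intervals as error bars. The R2R3 MYB bar falls from 40.8% for any region to 7.2% for the 2245 regions ranked highest, where all genes stand at 8.59%.

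Among genes that were near a region, the best regions of R2R3 MYB genes stood lower in the list by median, a difference that was not tested. The best region of a member, the one with the lowest FDR, had a median rank of 4883 (quartiles 2597 and 7120.5) and a median of 176 reads. For all 7684 genes near a region the median rank was 3795.5 and the median 337.5 reads. The best region was a top region for 17.6% of the 51 members and for 30.7% of all genes with one, and it ranked 6738 or lower for 29.4% and 18.7%. No member had a region among the 100 ranked highest, where 0.397% of all genes had one. Among the first 1000 there were 6 members (4.8%, 1.78 to 10.2), against 3.94% of all genes, so both counts were near the background. The 67 regions near members held 28552 reads, 0.558% of all reads in regions, and 33 of them had an FDR above 5%.

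**Figure D2:**
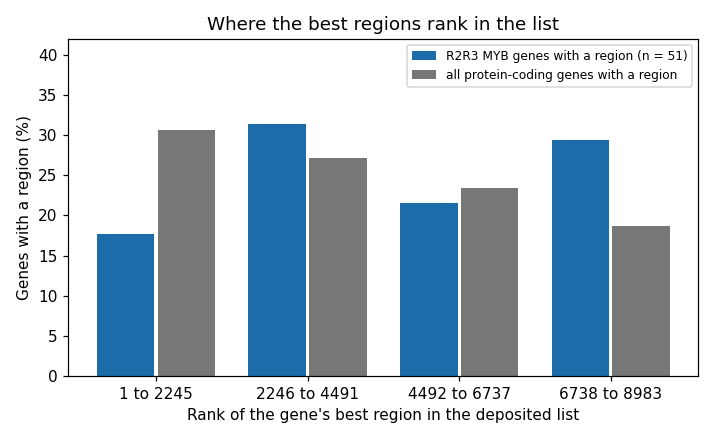
Share of genes with a region in percent (vertical axis) whose best region falls in each of 4 ranges of rank (horizontal axis), for the 51 R2R3 MYB genes and all 7684 protein-coding genes near a region. The R2R3 MYB bar is lower for ranks 1 to 2245 (17.6% against 30.7%) and higher for ranks 6738 to 8983 (29.4% against 18.7%).

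By reads, the strongest regions of the family lay at subgroup 22, whose 4 members were all near a top region. These genes, MYB44, MYB73, MYB77 and MYB70, encode close relatives that act in abscisic acid, auxin and stress signalling. Of the other 121 members, 47 were near a region and 5 near a top region (4.13%). Of all genes, 28% and 8.59% were, and of all 125 members 40.8% and 7.2%. Subgroup 22 was singled out by these same values, so the share of the rest is lower by construction and does not measure depletion. The 4 regions of subgroup 22 held 15143 reads, 53% of the reads in all regions near members, and each had more reads than any best region outside the subgroup, where the most was 1084.

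MYB44 (AT5G67300, listed as MYBR1), a regulator of abscisic acid responses and stomatal closure, had the region with the most reads in the family. It held 8217 reads within 79 bp (8040.3 to 8396.6 as a 95% Poisson interval, for counting error alone), on chromosome 5 from 26854833 to 26854912 (TAIR9). The authors' FDR was 1.31e-98%, rank 178 in the list, and by reads alone it was the region with rank 21 of all 8983. Its centre lay inside the gene and also within 1 kb of CYP81G1 (AT5G67310).

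MYB73 (AT4G37260), which acts in the salt stress response, had 3802 reads (3682.1 to 3924.8) inside the gene, on chromosome 4 from 17541139 to 17541284, at rank 424. This region also lay within 1 kb of HMA1 (AT4G37270). MYB77 (AT3G50060), which acts with auxin response factors in lateral root growth, had 1921 reads (1836 to 2008.9) inside the gene, on chromosome 3 from 18559155 to 18559282, at rank 474. MYB70 (AT2G23290) had 1203 reads (1136 to 1273) on chromosome 2 from 9906490 to 9906645, at rank 610. The read intervals of these 4 genes did not overlap, and MYB70 alone of them had its region beside the gene, more than 500 bp from its end, rather than inside. MYB77 and MYB70 shared their regions with no other protein-coding gene.

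The other 5 members with a top region came from several branches of the family. MYB91 (AT2G37630, listed as AS1), which sets leaf polarity and represses KNOX homeobox genes, had 822 reads (766.8 to 880.2) on chromosome 2 from 15784335 to 15784482. Its FDR of 2.17e-50% placed it at rank 532, above MYB70 although MYB70 had more reads. MYB74 (AT4G05100) and MYB102 (AT4G21440), osmotic stress and wounding genes of subgroup 11, had their best regions on chromosome 4. That of MYB74 held 1084 reads (1020.4 to 1150.5) from 2620465 to 2620615 at rank 616, and that of MYB102 held 953 reads (893.4 to 1015.5) from 11417263 to 11417438 at rank 1087. MYB47 (AT1G18710) had 877 reads (819.9 to 937) inside the gene at rank 1181, on chromosome 1 from 6453018 to 6453129. MYB56 (AT5G17800, subgroup 21), known as a brake on division in the root stem cell niche, had 387 reads (349.4 to 427.5) on chromosome 5 from 5876404 to 5876547 at rank 1673, the last member among the top regions. The next was MYB21, at rank 2320.

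Among these 9 genes the region lay more than 500 bp from the gene in 5, which were MYB91, MYB70, MYB74, MYB102 and MYB56. For all genes whose best region was a top region this was so in 23.2%. Among the 42 members with weaker best regions it was so in 7, and 30 of the 42 had the centre inside the gene. For the best regions of all genes, at any rank, these shares were 24% and 54.7%. The strand of the genes was not used, so the side of the gene on which a region lay is not given.

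**Figure D3:**
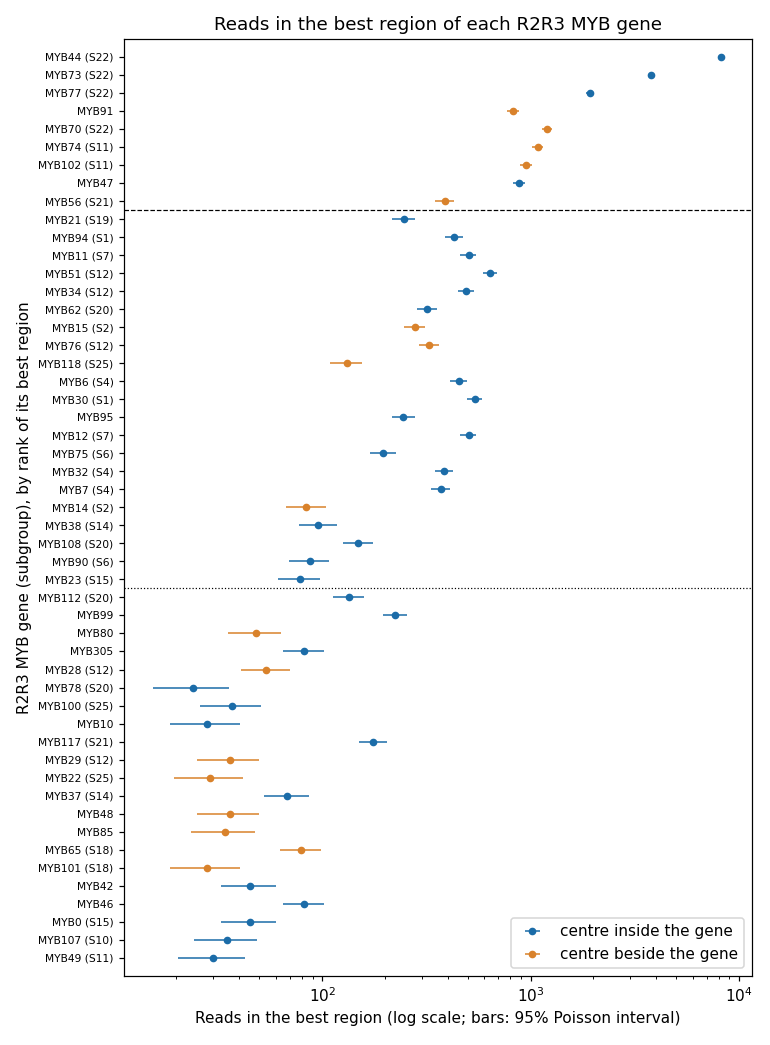
Reads in the best region (horizontal axis, log scale) of each of the 51 R2R3 MYB genes near a region (vertical axis, with the subgroup in brackets), ordered by rank, with 95% Poisson intervals and colours for a centre inside or beside the gene. The dashed line marks rank 2245 and the dotted line an FDR of 5%; the genes of subgroup 22 lie farthest to the right, from 1203 to 8217 reads.

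Subgroups 4, 5, 6 and 7 hold regulators of phenylpropanoid and flavonoid synthesis. Both MYB11 and MYB12 of subgroup 7, activators of flavonol synthesis, were near a region, and MYB111, the third member, had none within 3 kb. MYB11 (AT3G62610) had 504 reads (461 to 550) on chromosome 3 from 23155956 to 23156091 at rank 2470, in a region also within 1 kb of AT3G62615. MYB12 (AT2G47460) had the same number of reads, 504 (461 to 550), on chromosome 2 from 19478732 to 19478871, but a higher FDR, and ranked 3740. Both regions were centred inside the gene.

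In subgroup 6, whose members activate anthocyanin synthesis, 2 of 4 genes were near a region. MYB75 (AT1G56650, listed as PAP1) had 196 reads (169.5 to 225.4) at rank 3787, and MYB90 (AT1G66390) had 87 reads (69.7 to 107.3) at an FDR of 1.15%, rank 5088. MYB114 and MYB113 had regions only between 1 and 3 kb away, with 338 reads at rank 1228 for MYB114 and 66 reads at an FDR of 13% for MYB113. MYB90, MYB113 and MYB114 lie next to each other on chromosome 1, and which of them such a region acts on cannot be told from the list.

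Subgroup 4, which holds repressors of phenylpropanoid genes, had 3 of 6 members near a region. MYB6 (AT4G09460) had 452 reads (411.3 to 495.7) at rank 3361, MYB32 (AT4G34990) 384 reads (346.5 to 424.4) at rank 3941 and MYB7 (AT2G16720) 371 reads (334.2 to 410.7) at rank 4082, all centred inside the gene. The region of MYB32 was 563 bp long, the longest near any member. The other genes of the subgroup, MYB3, MYB4 and MYB8 (listed as HOS10), had no region within 3 kb, nor had MYB123 (TT2) of subgroup 5, which activates proanthocyanidin synthesis in the seed coat.

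Subgroup 12 regulates the glucosinolates, sulphur-containing defence compounds, and 5 of its 6 members were near a region, 3 of them at an FDR up to 5%. MYB51 (AT1G18570) and MYB34 (AT5G60890), which activate indole glucosinolate synthesis, had 639 reads (590.4 to 690.5) at rank 2512 and 491 reads (448.5 to 536.4) at rank 2682, both inside the gene. MYB122, which acts with them, had no region within 3 kb. Of the aliphatic glucosinolate regulators, MYB76 (AT5G07700) had 325 reads (290.6 to 362.3) at rank 3282. MYB28 had 54 reads (40.6 to 70.5) at an FDR of 7.92%, rank 6108, and MYB29 36 reads (25.2 to 49.8) at 23.6%, rank 7174, in a region nearer to its neighbour MYB76. This was the only region within 1 kb of 2 members. The regions of the indole regulators held more reads than those of the aliphatic regulators within 1 kb. This compares different regions of one list and was not tested. Over subgroups 4, 5, 6, 7 and 12 together, 12 of 20 members were near a region, 10 of them at 5% or less. Of all genes, 28% were near a region and 20.1% near one at this FDR, the shares against which the counts of single subgroups also stand. None of the 20 members was near a top region, against 8.59% of all genes.

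In the stress and cuticle subgroups 1, 2, 11 and 20, no gene but MYB74 and MYB102 had a top region within 1 kb. In subgroup 1, MYB30 (AT3G28910), which acts in defence-related cell death and the synthesis of very-long-chain fatty acids, had 540 reads (495.4 to 587.5) at rank 3478 and the wax regulator MYB94 (AT3G47600) 430 reads (390.3 to 472.6) at rank 2422. MYB96, which acts with MYB94, the guard cell gene MYB60 and MYB31 had no region within 1 kb. In subgroup 2, MYB15 (AT3G23250), which acts in cold and defence responses, had 278 reads (246.3 to 312.7) at rank 3030 and MYB14 84 reads, while MYB13 had 986 reads in a region between 1 and 3 kb away, at rank 1980. In subgroup 20, MYB62 (AT1G68320), of the phosphate starvation response, had 319 reads (285 to 356) at rank 2781. MYB108, MYB112 and MYB78 of that subgroup had 149, 134 and 24 reads, and the abscisic acid gene MYB2 had none within 3 kb. The third gene near a region in subgroup 11, MYB49, had 30 reads at an FDR of 94.2%, ranked last among the 51, and MYB41 had none.

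MYB21 (AT3G27810, subgroup 19), a jasmonate-response factor of stamen growth, had 246 reads (216.2 to 278.7) at rank 2320 in a region also within 1 kb of AT3G27809. MYB118 (AT3G27785), of seed maturation, had 131 reads (109.5 to 155.5) at rank 3302. In subgroup 15, which sets trichome and root hair fate, MYB23 had 78 reads at an FDR of 1.3% and MYB0 (GLABRA1) 45 reads at 63.2%. MYB66 (WEREWOLF) had none within 1 kb and 1378 reads in a region between 1 and 3 kb away. Of the axillary meristem genes in subgroup 14, MYB38 (RAX2) had 96 reads at 0.939% and MYB37 68 reads at 33%. MYB95 (AT1G74430) had 245 reads (215.3 to 277.7) at rank 3688 in a region also within 1 kb of AT1G74440, and was the only member with 3 regions.

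MYB46, which switches on secondary wall synthesis, had 82 reads at an FDR of 63%, and its partner MYB83 had no region within 3 kb. MYB42 and MYB85, which act in lignin synthesis, had 45 and 34 reads at 54.2% and 45.4%. The lignin activators MYB58 and MYB63 of subgroup 3 had none within 1 kb, nor had MYB103. MYB63 had one between 1 and 3 kb away, with 503 reads at an FDR of 0.856%. Of the GAMYB-like genes of subgroup 18, which act in anthers and pollen, MYB65 and MYB101 had 79 and 28 reads, both at 46.9%, and the other 5 had none within 1 kb.

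In all, 16 of the 23 subgroups had at least 1 member near a region. The other 7, subgroups 3, 5, 9, 13, 16, 23 and 24, had none among their 19 members. Of the 29 members in no subgroup, 11 were near a region and 3 of these at an FDR up to 5%. The 21 members whose best region lay above 5% held from 24 to 224 reads (median 45), and the 30 at or below it from 78 to 8217 (median 408.5). MYB23 at 1.3% was the last gene inside this limit and MYB112 at 5.23% the first outside.

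**Figure D4:**
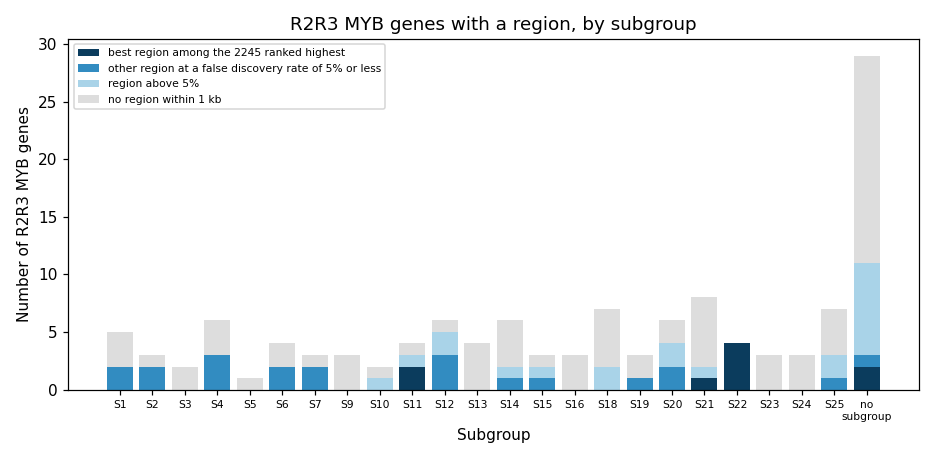
Number of R2R3 MYB genes (vertical axis) in each subgroup and outside the subgroups (horizontal axis), split by the support of the best region. Subgroup 22 is the only one with all of its members, 4, near a top region, and 7 subgroups have no member near a region.

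Several members had more than 1 region. There were 15 with 2 regions and 1 with 3, together 12.8% of the 125 (7.5 to 20), against 3.46% of all genes. Among WRKY genes 8.33% (3.12 to 17.3) had 2 or more regions, and among NAC genes 8% (3.52 to 15.2). Of the 17 further regions of the R2R3 MYB genes, 4 had an FDR up to 5%, and reads ran from 23 to 335. The strongest was the second region of MYB74, with 335 reads (300.1 to 372.9) on chromosome 4 from 2617404 to 2617517 at rank 1575, which places both regions of MYB74 among the top regions. MYB47 had a second region inside the gene with 168 reads, and MYB95 and MYB7 had second regions with 68 and 54 reads.

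Region centres inside the gene were found in 37 members (29.6%, 21.8 to 38.4), against 16.3% of all genes. Centres beside the gene were found in 22 (17.6%, 11.4 to 25.4), against 14%. For WRKY genes these shares were 34.7% and 25%, and for NAC genes 26% and 27%. Member genes had a median length of 1781 bp, shorter than the 2078 bp of all protein-coding genes. Members near a region had a median length of 1891 bp and those without one 1714.5 bp. The best region was also within 1 kb of another protein-coding gene for 11 of the 51 members (21.6%) and for 44.9% of all genes with a region. In 3 of the 11, MYB80, MYB29 and MYB22, the other gene was nearer to the centre. By chromosome, 8 of 29 members were near a region on chromosome 1, 8 of 13 on chromosome 2, 14 of 29 on chromosome 3, 7 of 17 on chromosome 4 and 14 of 37 on chromosome 5. Among all genes these shares ran from 26.2% on chromosome 3 to 29.6% on chromosome 2. The part of gene spacing and length in the members' share was not tested.

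Regions of strong support also lay outside the 1 kb limit. Of the 74 members without a region, 33 had one between 1 and 3 kb away and 41 had none within 3 kb. Within 3 kb, 84 of the 125 members were near any region (67.2%, 58.2 to 75.3), against 46.7% of all genes. The WRKY share was 79.2% and the NAC share 64%. Whether another gene lay nearer was not examined for regions between 1 and 3 kb away. Of the best regions of the 33 at this distance, 24 had an FDR up to 5% and 10 were top regions. Of all 8983 regions, 64.4% had such an FDR and 25% were top regions. For the FDR limit of 5%, the share of all genes at this distance was not counted. The strongest region of the 33 members held 2059 reads at rank 155, on chromosome 1 from 6174578 to 6174735. It lay at this distance from MYB52 of subgroup 21 and ranked above that of MYB44. MYB59, MYB87 and MYB18 (LAF1, a factor of far-red light signalling) had 1158, 931 and 1741 reads at this distance. Within 3 kb, 26 members were near a top region (20.8%, 14.1 to 29), against 15.4% of all genes. Of WRKY genes 38.9% were, and of NAC genes 24%.

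Genes that work with R2R3 MYB factors were examined through 6 lists with 55 genes, of which 24 were near a region (43.6%, 30.3 to 57.7; 28% of all genes) and 7 near a top region (12.7%; 8.59% of all genes). R2R3 MYB proteins of flavonoid and epidermal cells act in complexes with bHLH proteins and the WD-repeat protein TTG1. Of these 5 partner genes 2 were near a region (40%, 5.27 to 85.3). TTG1 (AT5G24520) had 1180 reads (1113.6 to 1249.3) inside the gene at rank 1021. MYC1 had 49 reads at an FDR of 41.9%, in a region also within 1 kb of AT4G00467. GL3, EGL3 and TT8 had none. Of 7 single-repeat MYB inhibitors of the complex 4 were near a region (57.1%, 18.4 to 90.1). They were led by MYBL2 (AT1G71030), a repressor of anthocyanin synthesis, with 2341 reads (2247.1 to 2437.8) beside the gene at rank 614. This region was also within 1 kb of LPR2. ETC1, ETC2 and TRY had 122, 195 and 68 reads, at FDRs of 1.3%, 18.8% and 1.41%. The regions of ETC1 and ETC2 were also within 1 kb of HTR12 and KIS, in that order.

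Of all genes 28% were near a region, the share against which the count of each list stands. Among the enzymes and partners downstream, 4 of 9 flavonoid genes were near a region (44.4%, 13.7 to 78.8). These were F3H (1404 reads, rank 630), LDOX (779 reads), DFR (434 reads) and CHI (26 reads, FDR 32.2%), each beside the gene. The regions of F3H, LDOX and DFR were also within 1 kb of AT3G51230, PGR5-LIKE A and IPK1, in that order. The other 5 flavonoid genes, among them CHS and FLS1, had none. In the list of glucosinolate enzymes and MYC factors 8 of 16 genes were near a region (50%, 24.7 to 75.3). At an FDR of 5% or less there were 7, where 20.1% of all genes were. MYC2, MYC3 and MYC4 were among these 7. The 8 genes without a region were all enzymes (BCAT4, CYP79F1, CYP79F2, CYP83A1, CYP83B1, SOT16, SOT17 and SOT18). MYC2 (AT1G32640), a bHLH factor of jasmonate signalling that works with subgroup 12, had 3684 reads (3566 to 3804.9) inside the gene at rank 1048, also within 1 kb of AT1G32630, and MYC3 576 reads. CYP79B2, which starts indole glucosinolate synthesis, had 1326 reads (1255.6 to 1399.3) but ranked 4514, in a region also within 1 kb of AT4G39952. Of the secondary wall genes 3 of 8 were near a region (37.5%, 8.52 to 75.5). These were NST2 (listed as NAC066, 877 reads), NST1 (320 reads, also within 1 kb of AT2G46765) and KNAT7 (101 reads). The cellulose synthase genes CESA4, CESA7 and CESA8 had none. Of 10 wax and cuticle genes 3 were near one (30%, 6.67 to 65.2). These were KCR1 (1203 reads, also within 1 kb of PSBY), CER3 (130 reads) and WSD1 (38 reads, 97.5%).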

How the data were processed

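One list of regions called in 1 ChIP library over 1 input library was used. Per the file headers, the authors mapped reads to TAIR9, and the submitters' processing notes name the same build. The aligner, peak caller and filters were not given in the sources used here. The deposited counts are whole-number reads per region, not normalised, and the headers do not say which library they come from. The false discovery rate in percent is the authors' value per region, deposited with the list. It served to rank regions and to filter them. Depth beyond the reads in regions is unknown.

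Genes and names came from the RefSeq table of TAIR10.1. Its build differs from that of the list. It gave names, gene lengths and the gene ends on which all calls of near, inside, beside and nearest gene rest. None of its coordinates are printed. Members were matched with Python 3.11.15, pandas 2.3.3 and SciPy 1.17.1. Subgroups followed the published numbering of the family, and all 55 genes of the pathway lists matched by locus, 53 of them with the symbol as written. Shares have 95% Clopper-Pearson and reads 95% Poisson intervals, which cover counting error only and treat reads copied in PCR as independent. No test between conditions was possible. Strand balance was tested per region with the exact binomial test, Benjamini-Hochberg adjusted over all 8983 regions, and this was tested on simulated data. By the naming rule, the 25 members ranked highest and the members of subgroups 4, 5, 6, 7 and 12 are given with the reads of their best region within 1 kb, the interval and the rank, and with coordinates for some. Others named with values were chosen after these were seen. Members and lists were chosen with earlier results of these data known. Promoter motifs had been planned and are not analysed here.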

Additional observations from a re-analysis of the deposited data

Results flagged for a closer look

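The split of reads by strand entered no comparison. Of the 67 regions near R2R3 MYB genes, 1 had unequal forward and reverse reads in the exact binomial test over all 8983 regions, and 84 regions did so in the whole list. It was the region beside MYB91 (AS1), with 476 forward and 346 reverse reads. The forward share was 57.9% (95% Clopper-Pearson interval 54.4 to 61.3; exact binomial test, Benjamini-Hochberg adjusted p = 0.00391). Over all 67 regions the pooled forward share was 50.3%. The test treats reads as independent, and its cause was not tested.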

How the results depend on the processing

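The count of R2R3 MYB genes near a region, 51 in the main setting, depended most on which regions and what distance were counted. It was 30 with regions of FDR up to 5%, 25 with the 4491 regions ranked highest, 9 with the 2245 ranked highest and 84 within 3 kb (67.2%, against 46.7% of all genes). For all genes the count was 7684 in the main setting, then 5508, 4447, 2357 and 12810 in the same order. The count of members stayed within 1.5 times under the other settings. It was 42 within 500 bp, 55 with any overlap, 51 with overlapping regions merged and 48 with the nearest gene only. Members by main symbol gave 47 of 116 and the numbered subgroups alone 40 of 96. The share was above that of all genes in each of these settings except that with the 2245 regions ranked highest. Taking the region with the most reads as the best changed the reads of none of the 25 members ranked highest and of 3 of the 51. Counting only sequence before the gene start was not run, since gene strand was not used. No paired analysis was possible because each group had 1 library.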
